A study of Mus musculus with 12 samples.

Results

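The 4 cytoplasmic polyadenylation element-binding protein genes *Cpeb1*, *Cpeb2*, *Cpeb3* and *Cpeb4* were followed through mouse lung development together with *Pabpc1*, *Pabpc4* and *Pum2*, whose proteins also bind the 3′ ends of mRNAs. These 7 genes were chosen by their symbols, with earlier results of these data known. All 7 were among the 16152 genes of the deposited count table and passed the filter on low counts, which left 15994 genes to test. The libraries were made from whole lungs of C57BL/6 mice, males and females, of 2 embryonic time-points (E15.5 and E18.5) and 2 postnatal ones (P5 and P8), with 3 libraries per time-point and 12 in all. Every animal was untreated and none carried a transgene or a deletion, so the age is what separates the groups. Per the study’s methods, 1 litter gave all replicates of a given age, and a difference between litters cannot be told apart from a difference between time-points.

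The poly(A) tail of an mRNA is added in the nucleus, bound in the cytoplasm by poly(A)-binding proteins, and shortened by deadenylases. CPEB proteins recognise a U-rich element in the 3′UTR of their targets, the cytoplasmic polyadenylation element (CPE), and can hold an mRNA silent or lengthen its tail, depending on their partners. PABPC1 is the main cytoplasmic poly(A)-binding protein and links the tail to the translation initiation factors, PABPC4 is a related poly(A)-binding protein, and PUM2 is a Pumilio repressor that recruits deadenylases to its targets. *Pabpc1* and *Pabpc4* are expressed in most tissues, whereas CPEB1 is best known from oocytes and neurons.

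The CPE itself was looked for in the genes that encode these proteins, because a CPE in a *Cpeb* mRNA is where a CPEB protein could bind it. Which CPEB proteins bind this element was not examined here. The search used the last 250 bases of the longest annotated 3′UTR of each gene (GENCODE release 21 for mouse, mm10, transcript strand only). The letters TTTTAT were present in 5 of the 7 genes, and in 26.8% of the 12570 tested genes with a 3′UTR of at least that length. Each match is shown 5′ to 3′ with 10 bases on either side and the 6 letters of the CPE in capitals.
*Cpeb4*, chr11:31935408-31935433, plus strand: gtaattcattTTTTATtaaagtcatt
*Cpeb2*, chr5:43289496-43289521, plus strand: gaacccatgcTTTTATggacactagg
*Cpeb2*, chr5:43289556-43289581, plus strand: atttagtttaTTTTATtgttatcttc
*Cpeb3*, chr19:37021508-37021533, minus strand: aataaattaaTTTTATgatgctaatt
*Pabpc1*, chr15:36595839-36595864, minus strand: caaattaatgTTTTATagaccctggg
*Pabpc4*, chr4:123298834-123298859, plus strand: ttgatgccagTTTTATgttacaatct

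The CPE of *Pabpc4* began 82 bases before the annotated end of the transcript, nearer to it than the others, which began 159 to 233 bases before it. The polyadenylation hexanucleotide AATAAA was present in all 7 windows and in 70.2% of the tested genes with such a window. In *Cpeb4* it began 19 bases before the transcript end, in the sequence atgttgaatgAATAAAacttttaact (chr11:31935606-31935631), where the capitals mark the hexanucleotide. The Pumilio element TGTANATA, which does not overlap the CPE in its letters, was in none of the 7 windows and in 8.93% of all. These matches describe the annotated sequence, and the counts per gene do not show which 3′ end was used.

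Reads counted on genes ranged from 41337443 to 53901957 per library. The markers of lung epithelium (8 of 8), endothelium (5 of 5) and lung mesenchyme (5 of 5) were at 1 CPM (counts scaled to the mapped reads of the library) or more in all 12 libraries. Some libraries stood apart in markers of other tissues. The summed level of the 6 cardiomyocyte markers was 834 and 959 CPM in E15.5 replicates 1 and 2, where the other 10 libraries were between 19.7 and 288 CPM. The summed level of the 8 thymocyte and T cell markers was 33.6 CPM in E15.5 replicate 2, and 208 and 394 CPM in P8 replicates 1 and 2, with 4.08 to 22.1 CPM in the other 9. The summed level of the 4 hepatocyte markers was 10.5, 103 and 33.7 CPM in P8 replicates 1, 2 and 3, with 0.747 to 5.03 CPM in the other 9. The 8 neuron markers went from 12.2-13.8 CPM at E18.5 to 60.3-62.3 CPM at P5, where 1 of the 8 was at 1 CPM or more. Results for genes that move with these libraries are given with and without them.

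Differential gene expression was tested with edgeR on all genes, and a gene was called when its log2 fold change was above 1 in size with an FDR under 0.05. The FDR and the standard error (SE) of a log2 fold change are those of edgeR unless another tool is named. The intervals between adjacent time-points are referred to as before birth (E15.5 to E18.5), across birth (E18.5 to P5) and after birth (P5 to P8). Across birth *Cpeb1*, *Cpeb3* and *Cpeb4* rose and *Pabpc1* and *Pabpc4* fell past both cutoffs. These are 3 of 7 genes higher, beside 17.5% of all genes tested, and 2 of 7 lower, beside 9.34%. The study had picked *Cpeb4* from these same libraries for a change in this interval at the same cutoffs, so its call was known beforehand. With the FDR alone, 4 of the 7 genes were higher and 3 were lower, where 35.4% and 35.7% of all genes were. The 7 genes thus changed at an interval in which 71.1% of all genes passed the FDR threshold. No gene of the 7 was called before birth (3.04% of all genes called) or after it (2.96%). By edgeR at an unadjusted p under 0.05 there were 4 and 0 genes in these intervals, and DESeq2 called 1 and 0, the 1 being *Cpeb1*. The shares of all genes at that unadjusted level and in DESeq2 are not given here. In CPM, every P5 library was above every E18.5 library for 4 of the 7 genes (34.4% of all genes) and below for the other 3 (42.6%). Before birth this held for 2 genes above (18.3%) and 1 below (19.8%), and after birth for 4 above (20.8%) and none below (16.3%).

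**Figure D1:**
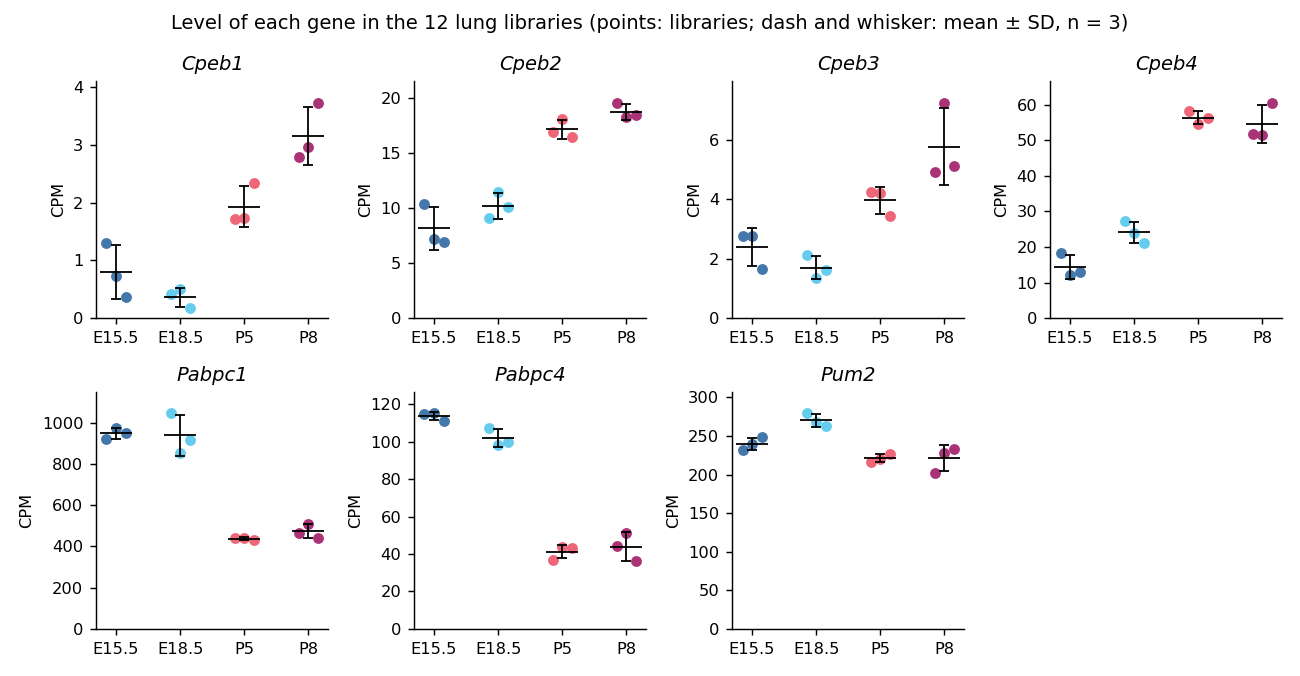
Level of each of the 7 genes in CPM (vertical axis, from 0) in the 3 libraries of each time-point (points), with the mean and SD (dash and whisker). All P5 and P8 libraries lie above all E15.5 and E18.5 libraries for *Cpeb1* to *Cpeb4* and below them for *Pabpc1* and *Pabpc4*, while the *Pum2* level differs by less, from 203 to 280 CPM.

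*Cpeb4* (ENSMUSG00000020300, chr11:31872211-31935634, plus strand) encodes the CPEB with the highest transcript level per length in these lungs. Its level was 18.2, 12.2 and 12.9 CPM in the E15.5 libraries and 27.2, 23.98 and 21.2 CPM in those of E18.5. It was 58.1, 54.6 and 56.3 CPM in the libraries of P5, and 51.6, 51.5 and 60.6 CPM in those of P8. Each E18.5 library was above each E15.5 library and each P5 library above each E18.5 library, whereas P5 and P8 overlapped. Before birth its log2 fold change was 0.75 (SE 0.14, FDR = 0.0043), past the FDR threshold but under the fold change cutoff, as were 2 of the 7 genes (FDR alone, higher: 11.6% of all genes). Across birth it was 1.31 (SE 0.14, FDR = 3.2e-06), a 2.48-fold rise, and after birth it was -0.07 (SE 0.14, FDR = 0.78). Over the whole rise, between E15.5 and P5, *Cpeb4* increased 4.16-fold. In whole-lung RNA, more cells that express a gene and more RNA per cell cannot be told apart, here and for all genes below.

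The rise of *Cpeb4* thus began before birth. Its 2 steps, before and across birth, differed by 0.56 on the log2 scale, which did not pass the threshold (SE 0.24, FDR = 0.073). This contrast of adjacent intervals was added after the values were known. The step after birth was lower than that across birth by 1.38 (SE 0.23, FDR = 3.5e-04). Between E18.5 and P5 the summed level of the lung epithelium markers went from 1874-2839 to 15247-17261 CPM and that of the endothelium markers from 945-1023 to 2292-2404 CPM. The part of these cell types in the level of *Cpeb4* was not tested here. By quantitative PCR on sorted cells, the paper reports a rise of *Cpeb4* in populations enriched for endothelial, epithelial and mesenchymal cells. For *Cpeb4* and the other regulators it picked, it places the largest fold changes in the epithelial population, between E15.5 and E18.5.

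*Cpeb2* (ENSMUSG00000039782, chr5:43233170-43289724, plus strand), a paralog of *Cpeb4*, was at 10.4, 7.16 and 6.94 CPM in the E15.5 libraries and at 9.11, 11.4 and 10.1 CPM in those of E18.5. After birth it was at 16.9, 18.1 and 16.4 CPM in the libraries of P5 and 19.6, 18.2 and 18.4 CPM in those of P8. The E15.5 and E18.5 libraries overlapped, and all 6 postnatal libraries were above all 6 embryonic ones. Across birth *Cpeb2* rose by 0.83 (SE 0.14, FDR = 2.0e-04), a 1.78-fold change that passed the FDR threshold but not the fold change cutoff. Between E15.5 and P5 it rose by 1.16 (SE 0.14, FDR = 1.1e-05), past both. The change before birth was 0.33 (SE 0.14, FDR = 0.12). The span of an antisense transcript, Gm7854, overlaps that of *Cpeb2* on the opposite strand, and an overlap of their exons was not examined. A strand setting of the counting is not given in the sources used here, and the authors left out reads counted as ambiguous. Whether the overlap affects the *Cpeb2* counts is therefore not known. The unclassified genes Gm42551 and 6030400A10Rik overlap *Cpeb2* on its own strand.

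*Cpeb1* (ENSMUSG00000025586, chr7:81347026-81455465, minus strand), the founding member of the family, had the lowest level of the 7. It was at 1.31, 0.727 and 0.374 CPM in the E15.5 libraries and 0.411, 0.498 and 0.183 CPM in those of E18.5, and the E18.5 values rest on 20, 26 and 10 reads. The P5 libraries were at 1.72, 1.73 and 2.33 CPM, and the P8 libraries at 2.79, 2.96 and 3.73 CPM, with 84 to 227 reads behind each of these values. The E15.5 and E18.5 libraries overlapped, each P5 library was above all embryonic ones, and each P8 library was above each P5 library. *Cpeb1* rose 5.61-fold across birth, by 2.49 on the log2 scale (SE 0.44, FDR = 2.5e-04). In this edgeR fit the change was the largest of the 7 genes in that interval and had the largest SE. The ranking did not hold in every alternative. Apart from the fits with 1 library left out, the lowest value was 1.103 for *Cpeb1* and 1.196 for *Cpeb4*. Both are from limma on log2(CPM + 1), where the added 1 lowers the change of a gene at the level of *Cpeb1*. The step after birth was 0.69 (SE 0.39, FDR = 0.24). Between E18.5 and P8 *Cpeb1* rose by 3.18 (SE 0.45, FDR = 3.3e-05).

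Before birth the *Cpeb1* change was -1.14 on the log2 scale (SE 0.44, FDR = 0.084). The 2 E15.5 libraries with the higher *Cpeb1* levels, replicates 1 and 2, are also those with the high cardiomyocyte markers. Without these 2 libraries the log2 fold change was -0.05 (FDR = 0.97), and without E15.5 replicate 3 it was -1.48 (FDR = 0.024). DESeq2 gave -1.14 with an adjusted p of 0.048. The difference between E15.5 and E18.5 in *Cpeb1* therefore rests on which of the E15.5 libraries is used. The rise across birth was between 2.16 and 2.78 with each library left out in turn. In the other 11 alternatives it was between 1.103 and 2.53, and all 11 kept the call.

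*Cpeb3* (ENSMUSG00000039652, chr19:37021291-37208601, minus strand) was at 2.76, 2.75 and 1.67 CPM in the E15.5 libraries and at 2.11, 1.34 and 1.63 CPM in those of E18.5. It was at 4.24, 4.21 and 3.45 CPM in the libraries of P5 and at 4.93, 7.25 and 5.11 CPM in those of P8. As for *Cpeb1*, the 2 embryonic time-points overlapped, the P5 libraries were above both, and the P8 libraries were above the P5 libraries. *Cpeb3* rose 2.49-fold across birth (log2 fold change 1.31, SE 0.25, FDR = 4.4e-04). This value was 0.89 in limma on log2(CPM + 1), which lowers the changes of genes at this level. After birth the change was 0.52 (SE 0.24, FDR = 0.15), and 0.34 without the 3 libraries with the highest thymocyte markers (FDR = 0.62). P8 replicate 2, where *Cpeb3* was highest, is the library with the highest summed thymocyte (394 CPM) and hepatocyte (103 CPM) markers, and its cardiomyocyte markers (288 CPM) were the highest of the postnatal libraries. Without it the change after birth was 0.33 (FDR = 0.46). The part of RNA from these cell types in this value was not tested. Before birth it was -0.49 (SE 0.25, FDR = 0.18), and 0.013 without the 2 E15.5 libraries with high cardiomyocyte markers. The spans of the antisense gene A330032B11Rik and the gene March5 overlap that of *Cpeb3* on the opposite strand. As for *Cpeb2*, an overlap of exons was not examined, and whether it affects the *Cpeb3* counts is not known.

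*Pabpc1* (ENSMUSG00000022283, chr15:36595661-36609668, minus strand) was the most abundant of the 7, at rank 85 of 16152 genes by its mean CPM. It was at 920, 974 and 951 CPM in the E15.5 libraries and at 1045, 851 and 917 CPM in those of E18.5. It was at 442, 442 and 429 CPM in the libraries of P5 and at 467, 511 and 443 CPM in those of P8. All 6 postnatal libraries were below all 6 embryonic ones, and the 2 embryonic time-points overlapped. Across birth *Pabpc1* fell by 1.01 on the log2 scale (SE 0.08, FDR = 3.3e-07), which is 2.02-fold lower. This value lies at the fold change cutoff: it was -0.99 with DESeq2 size factors, in DESeq2 and without P5 replicate 3, -0.92 without E18.5 replicate 1, and -0.998 without the 3 libraries with high thymocyte markers, each with the FDR far under the threshold. Before birth the change was -0.0092 (SE 0.08, FDR = 0.95), with a sign that changed between alternatives. *Pabpc1* has near-identical processed copies in the genome, and as the authors kept uniquely aligned reads, its level may be understated.

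*Pabpc4* (ENSMUSG00000011257, chr4:123262351-123298925, plus strand) was at 115, 115 and 111 CPM in the E15.5 libraries and at 107, 98.4 and 99.9 CPM in those of E18.5. It was at 37.1, 43.7 and 43.1 CPM in the libraries of P5 and at 44.5, 51.3 and 36.1 CPM in those of P8. Each E18.5 library was below each E15.5 library, and all postnatal libraries were below both. Across birth *Pabpc4* fell by 1.22 on the log2 scale (SE 0.10, FDR = 4.5e-07), 2.33-fold, and this value was between -1.26 and -1.17 with each library left out in turn. The change before birth was -0.15 (SE 0.10, FDR = 0.30) and that after birth was 0.07 (SE 0.10, FDR = 0.65).

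For both genes the step across birth differed from the steps before and after it. It was lower than the step before birth by 1.003 for *Pabpc1* (SE 0.14, FDR = 1.2e-04) and by 1.06 for *Pabpc4* (SE 0.17, FDR = 3.6e-04). The step after birth was higher than that across birth by 1.11 (FDR = 5.8e-05) and 1.29 (FDR = 9.6e-05). Among the markers, the 7 genes of dividing cells moved the same way. Their summed level was 1517 to 1798 CPM at E15.5 and 1580 to 1648 CPM at E18.5, and 570 to 608 CPM at P5 and 491 to 652 CPM at P8, with all 7 at 1 CPM or more in every library. Their part in the levels of *Pabpc1* and *Pabpc4* was not tested.

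*Pum2* (ENSMUSG00000020594, chr12:8674134-8752581, plus strand) changed by less than the other 6 genes over the 4 time-points. It was at 233, 240 and 248 CPM in the E15.5 libraries and at 280, 269 and 263 CPM in those of E18.5. It was at 217, 220 and 227 CPM in the libraries of P5 and at 203, 228 and 234 CPM in those of P8. It was highest at E18.5, where every library was above every library of the other 3 time-points. *Pum2* rose by 0.18 before birth (SE 0.06, FDR = 0.040) and fell by 0.20 across birth (SE 0.06, FDR = 0.0057), changes of 1.13-fold and 1.15-fold that were past the FDR threshold only. The rise had an FDR of 0.026 to 0.14 with each library left out in turn, over 0.05 without E15.5 replicate 1 or 2, E18.5 replicate 1 or 2 or P5 replicate 2, and 0.44 without both E15.5 libraries with high cardiomyocyte markers. The 2 steps differed by 0.38 (SE 0.10, FDR = 0.0061). E15.5 and P5 did not differ past the threshold (log2 fold change -0.03, SE 0.06, FDR = 0.69).

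**Figure D2:**
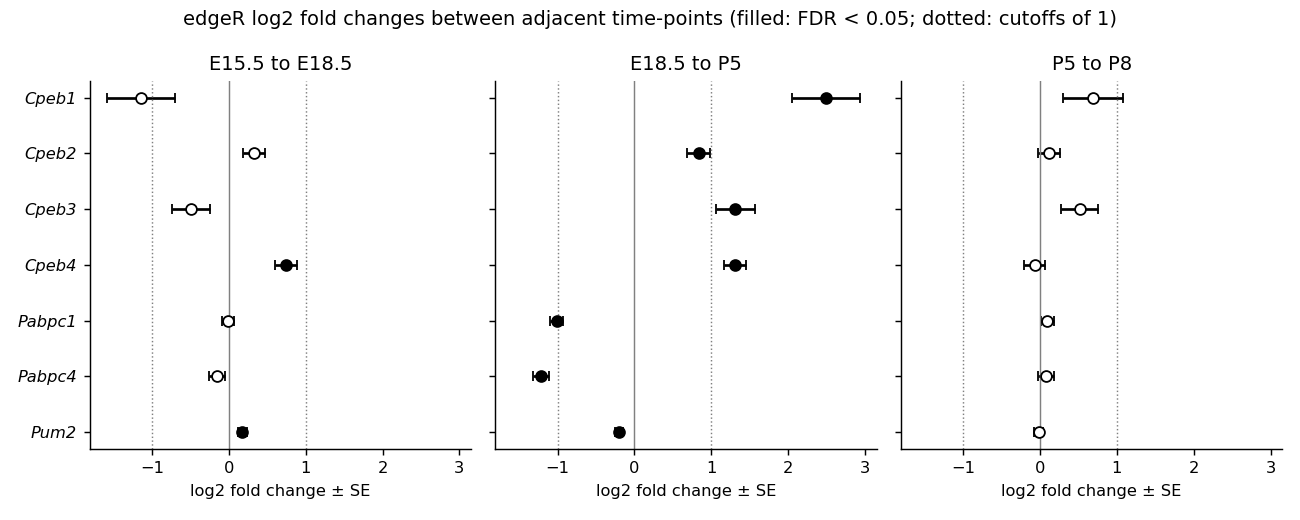
edgeR log2 fold change with its SE (horizontal axis) for each of the 7 genes in the 3 comparisons of adjacent time-points, where filled points have an FDR under 0.05 and dotted lines mark the fold change cutoffs. Across birth (E18.5 to P5) all 7 points are filled, with the 4 *Cpeb* genes between 0.83 and 2.49 and *Pabpc1*, *Pabpc4* and *Pum2* between -1.22 and -0.20, whereas from P5 to P8 none is.

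Over the wider comparisons, which share libraries with those above, the calls were similar in number. Between E15.5 and P5, 3 of the 7 genes were higher (*Cpeb1*, *Cpeb2* and *Cpeb4*, beside 19.5% of all genes) and *Pabpc1* and *Pabpc4* were lower (12.4%). Between E15.5 and P8 all 4 *Cpeb* genes were higher (20.9%) and *Pabpc4* was lower (11.5%), while *Pabpc1*, at -0.93, was short of the fold change cutoff. Between E18.5 and P8, *Cpeb1*, *Cpeb3* and *Cpeb4* were higher (19.6%) and *Pabpc4* was lower (9.38%). *Pum2* was 0.22 lower at P8 than at E18.5 on the log2 scale (SE 0.06, FDR = 0.0033).

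Per length of annotated exons, the 7 genes had the same order of mean levels at all 4 time-points. *Pabpc1* was at 143 CPM per kb at E18.5 and 67.0 at P5, *Pum2* at 37.2 and 30.5, and *Pabpc4* at 25.3 and 10.3. *Cpeb4* was at 3.79 ± 0.471 CPM per kb (SD, n = 3) at E18.5 and 8.85 ± 0.274 at P5, and *Cpeb2* at 1.31 ± 0.149 and 2.19 ± 0.112. The *Cpeb4* and *Pabpc4* ranges, which were 3.33 to 4.27 and 24.4 to 26.6 CPM per kb at E18.5, overlapped at P8, with *Cpeb4* at 8.09 to 9.51 and *Pabpc4* at 8.96 to 12.7 CPM per kb. *Cpeb1* and *Cpeb3* were the lowest, at 0.754 ± 0.120 and 0.777 ± 0.174 CPM per kb at P8, where their libraries overlapped, as they did at E15.5 and P5. At E18.5 they did not overlap, with *Cpeb1* at 0.0437 to 0.119 and *Cpeb3* at 0.181 to 0.285 CPM per kb.

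The make-up of the *Cpeb* family was read from shares of the summed counts of the 4 genes within each library, which do not depend on the library total. The share of *Cpeb4* was 55.8%, 53.4% and 59.0% in the E15.5 libraries and 70.0%, 64.4% and 64.1% in those of E18.5. It was 71.8%, 69.4% and 71.7% in the P5 libraries and 65.4%, 64.4% and 69.0% in those of P8. The E15.5 libraries were below all others, and the E18.5 libraries overlapped with the postnatal ones. Over 6 embryonic and 6 postnatal libraries the mean share was 61.1% ± 6.21 and 68.6% ± 3.11 (SD), a difference of 7.52 percentage points (exact permutation test, two-sided, p = 0.026). The test takes each library as a unit, though those of an age share a litter, so its p does not measure the spread between litters. With 1 library left out the difference was 5.97 to 9.31 points, and p was 0.052 to 0.056 without E15.5 replicate 1 or 2 or P5 replicate 1 or 3 (exact permutation test). It was 4.25 points (exact permutation p = 0.10) without E15.5 replicates 1 and 2, and 6.35 points (exact permutation p = 0.063) with the counts per exonic length. Between E18.5 and P5 alone it was 4.81 points, where 3 against 3 libraries cannot give a p under 0.10 (exact permutation p = 0.20). The share of *Cpeb2* was 31.6% ± 0.215 (SD, n = 3) at E15.5 and 28.2% ± 4.10 at E18.5, and 21.6% ± 1.23 and 22.8% ± 1.92 at the 2 postnatal time-points in order. *Cpeb3* and *Cpeb1* made up the rest, with 3.597% to 12.1% and 0.553% to 4.25% of the counts in a library. The summed level of the 4 genes went from 33.1-38.9 CPM at E18.5 to 78.5-81.0 CPM at P5.

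The ratio of *Pabpc1* to *Pabpc4* counts was 7.99, 8.45 and 8.54 in the E15.5 libraries and 9.74, 8.65 and 9.18 in those of E18.5. It was 11.9, 10.1 and 9.97 in the P5 libraries and 10.5, 9.96 and 12.3 in those of P8. All 6 postnatal libraries were above all 6 embryonic ones, so *Pabpc4* fell by more than *Pabpc1* did. The mean log2 ratio was 3.13 ± 0.0998 before birth and 3.43 ± 0.136 after it (SD, n = 6), a difference of 0.30 (exact permutation test, two-sided, p = 0.0022, the smallest that 6 against 6 libraries can give). Here too the libraries of an age share a litter, and the spread between litters is not measured by this p. The difference in log2 ratio was between 0.26 and 0.33 with each library left out in turn, and 0.21 between E18.5 and P5 alone (exact permutation p = 0.10, the smallest that 3 against 3 can give).

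**Figure D3:**
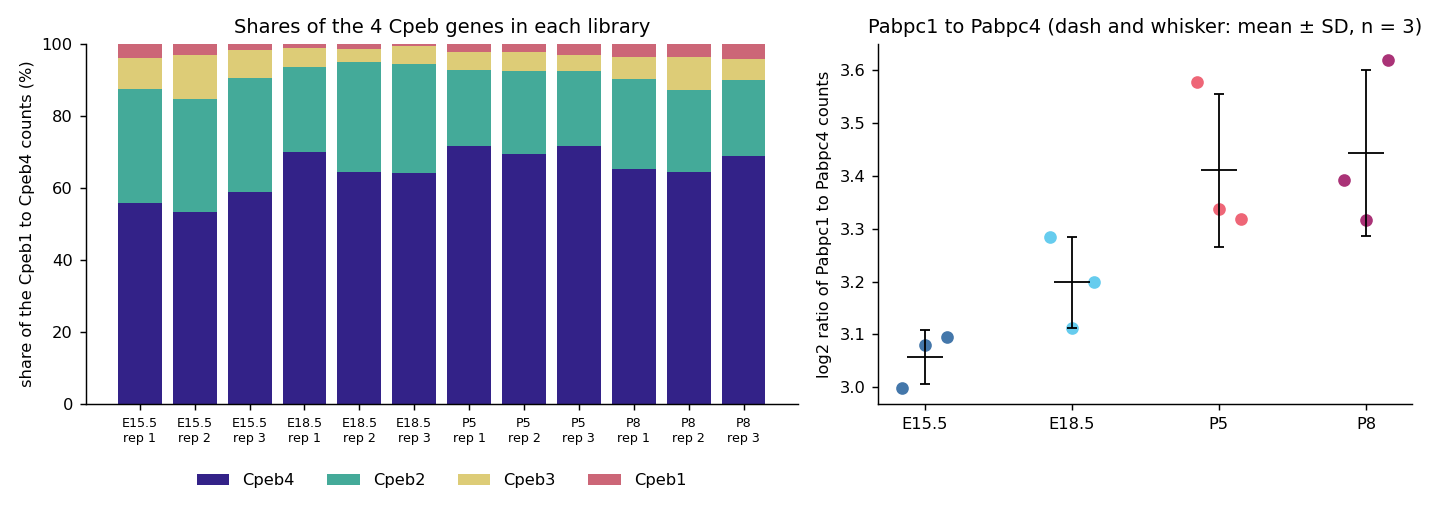
Left, share of each *Cpeb* gene (%) in the summed *Cpeb1* to *Cpeb4* counts of each of the 12 libraries. Right, log2 ratio of *Pabpc1* to *Pabpc4* counts in each library (points) with the mean and SD of the 3 replicates (dash and whisker). The *Cpeb4* share is lowest in the 3 E15.5 libraries, at 53.4% to 59.0%, and the log2 ratio is 2.999 to 3.28 in the embryonic libraries and 3.32 to 3.62 in the postnatal ones.

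The other genes of the pathway were taken from 6 lists of 80 genes in all, of which 74 were tested. Across birth, 2 of the 74 were higher and 5 were lower past both cutoffs, beside 17.5% and 9.34% of all genes. With the FDR alone, 7 were higher and 51 lower, beside 35.4% and 35.7%. The median log2 fold change of the 74 was -0.33, where that of all genes was -0.0024. No gene of the 74 was called before or after birth by edgeR, DESeq2 or limma. At an unadjusted p under 0.05 edgeR gave 30 and 26 genes in these intervals, and with the FDR alone 4 higher and 14 lower, and 8 higher and 9 lower. The shares of all genes with the FDR alone were 11.6% higher and 9.87% lower before birth, and 9.75% and 8.21% after it. No share of all genes at an unadjusted p under 0.05 is given, so the 30 and 26 have none beside them.

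Among the non-canonical poly(A) and uridyl transferases, enzymes that add A or U residues to RNA 3′ ends in several compartments of the cell, *Tent5b* and *Tent5c* were the 2 genes of the pathway to rise past both cutoffs across birth. *Tent5b* went from 2.34, 2.12 and 0.916 to 9.23, 10.98 and 10.2 CPM, a rise of 2.58 on the log2 scale (SE 0.32, FDR = 1.2e-05). *Tent5c* went from 16.9, 17.1 and 17.1 to 113, 60.1 and 60.6 CPM, a rise of 2.29 (SE 0.22, FDR = 1.3e-06). The library with the highest *Tent5c* level, P5 replicate 1, also had the highest summed level of the erythroid markers, 19579 CPM, where the other P5 libraries were at 11946 and 13131 CPM and the E18.5 libraries at 4046 to 4766 CPM. In P8 replicates 1, 2 and 3 *Tent5c* was at 78.1, 78.7 and 86.9 CPM and the erythroid markers were at 14736, 10452 and 12251 CPM. The part of erythroid cells in the level of *Tent5c* was not tested. *Tut4*, a uridyl transferase that marks mRNAs and microRNA precursors for decay, fell by 1.02 across birth (SE 0.07, FDR = 7.1e-08). *Tent2*, the poly(A) polymerase GLD2 that works with CPEB1 in oocytes, was at 54.7 ± 1.92 CPM (SD, n = 3) before and 42.9 ± 1.93 after this interval, and fell by a further 0.21 after birth (SE 0.06, FDR = 0.031). *Tent4b* rose by 0.26 before birth (SE 0.07, FDR = 0.026).

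All 6 partner proteins of CPEB in the list fell across birth with the FDR alone (35.7% of all genes), 2 of them past both cutoffs (9.34% of all genes). *Aurka*, the kinase that phosphorylates CPEB1 and drives mitosis, went from 59.4, 74.8 and 77.7 to 24.4, 27.3 and 24.5 CPM (-1.39 on the log2 scale, SE 0.09, FDR = 4.9e-08). *Tacc3*, a spindle protein whose *Xenopus* counterpart maskin binds CPEB, went from 105, 122 and 133 to 38.0, 42.5 and 40.6 CPM (-1.48, SE 0.08, FDR = 1.7e-08). Both act in the mitotic spindle, and the markers of dividing cells fell in the same interval, as given above. The part of dividing cells in the levels of *Aurka* and *Tacc3* was not tested. *Aurka* also fell by 0.36 before birth (SE 0.09, FDR = 0.014). *Eif4e*, the cap-binding initiation factor, fell by 0.21 after birth (SE 0.07, FDR = 0.045). Its change across birth was larger, at -0.78 (FDR = 4.0e-07).

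Of the 20 genes of nuclear cleavage and polyadenylation, 18 fell across birth with the FDR alone (35.7% of all genes) and none rose (35.4%). No gene was past the fold change cutoff, and the median was -0.50. *Cstf2*, a subunit of the cleavage stimulation factor, had the smallest FDR and went from 98.3 ± 5.03 to 53.95 ± 1.55 CPM (-0.78 on the log2 scale, SE 0.05, FDR = 4.6e-08). Before birth 7 of the 20 fell with the FDR alone (9.87% of all genes). They were led by *Pabpn1*, the nuclear poly(A)-binding protein, at 20.6 ± 0.478 CPM in the E15.5 libraries and 11.7 ± 1.24 CPM in those of E18.5 (-0.81 on the log2 scale, SE 0.13, FDR = 0.0023). After birth 3 rose (9.75% of all genes) and 1 fell (8.21%), and *Sympk*, the scaffold protein symplekin, rose by 0.34 (SE 0.06, FDR = 0.0053). *Sympk* had fallen until then, with log2 fold changes of -0.34 before birth (FDR = 0.0039) and -0.90 across it (FDR = 8.5e-08). Its mean was 180 CPM at E18.5, 90.5 CPM at P5 and 116 CPM at P8.

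Of the 13 tested poly(A)-binding proteins and partners, 1 rose and 9 fell across birth with the FDR alone (35.4% and 35.7% of all genes), and the median was -0.52. *Gspt2*, a translation termination factor that binds PABPC1, fell past both cutoffs, from 2.81, 3.06 and 4.38 to 1.33, 1.40 and 1.12 CPM (-1.32 on the log2 scale, SE 0.24, FDR = 3.0e-04). *Eif4g1*, the initiation factor that joins PABPC1 to the cap complex, fell by 0.27 before birth (SE 0.07, FDR = 0.014), and *Paip2b*, an inhibitor of PABPC1, fell by 0.29 after birth (SE 0.05, FDR = 0.0044). Both changed more across birth, *Eif4g1* by -0.74 (FDR = 6.4e-07) and *Paip2b* by -0.94 (FDR = 1.2e-08). Among the 22 tested deadenylases and adaptors, 3 rose and 11 fell across birth with the FDR alone (35.4% and 35.7% of all genes), with a median of -0.21. *Cnot9*, a subunit of the CCR4-NOT complex, fell from 99.3, 107 and 121 to 43.3, 46.8 and 49.6 CPM (-1.14, SE 0.08, FDR = 6.7e-08). *Cnot6l*, a catalytic subunit of the same complex, rose by 0.61 before birth (SE 0.08, FDR = 7.8e-04). *Btg2*, an antiproliferative adaptor of CCR4-NOT, rose by 0.22 before birth (FDR = 0.018) and by 0.29 across it (FDR = 4.7e-04). It then fell by 0.26 after birth (SE 0.06, FDR = 0.011), to a mean of 104 CPM at P8, where that of E18.5 was 106 CPM.

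Of the list of Pumilio, Nanos and Dazl genes, 3 of 6 were tested. Across birth 2 of them fell with the FDR alone (35.7% of all genes). *Pum3* fell by 0.18 before birth (SE 0.06, FDR = 0.035) and by 0.54 across birth (SE 0.06, FDR = 2.8e-06).

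**Figure D4:**
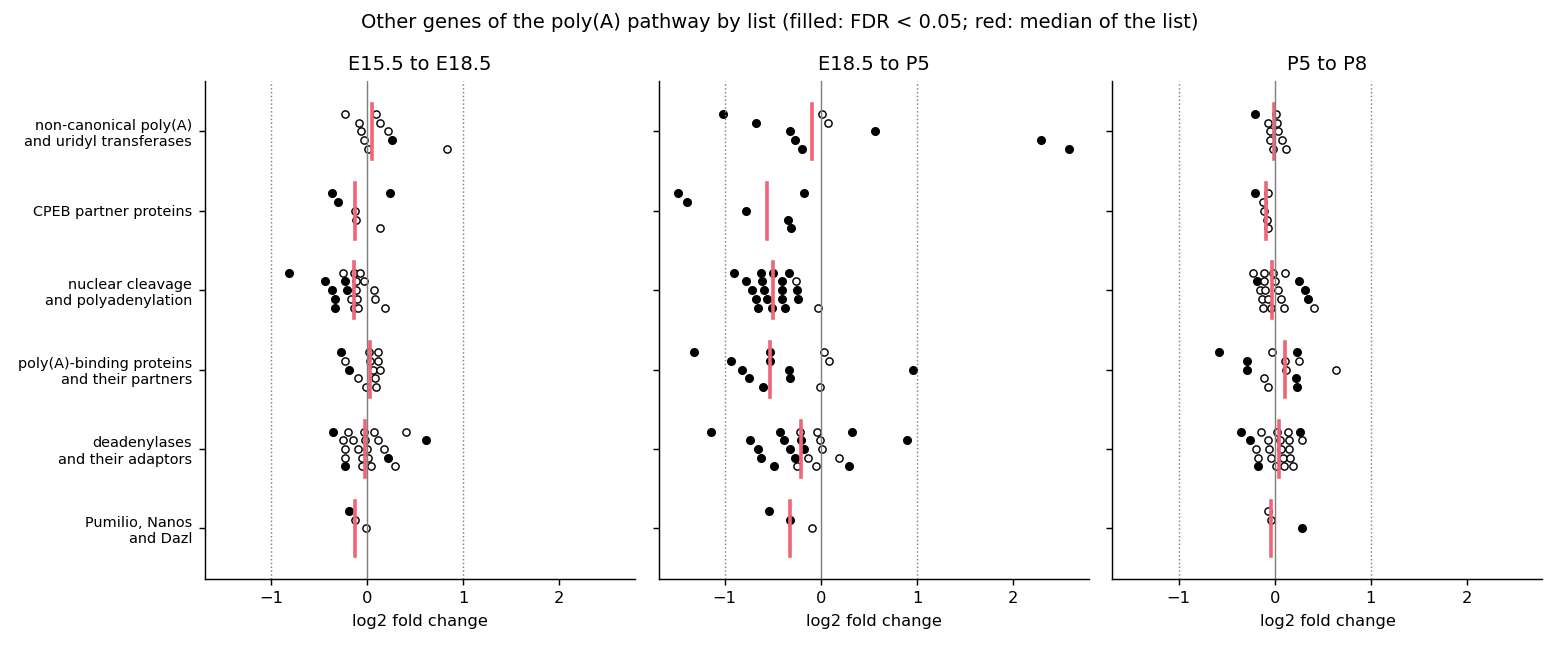
edgeR log2 fold change (horizontal axis) of each of the 74 tested genes of the 6 pathway lists (rows) between adjacent time-points, where filled points have an FDR under 0.05 and red lines are the median of each list. Across birth (E18.5 to P5) 51 of the 74 points are filled and below 0, with *Tent5b* and *Tent5c* at 2.58 and 2.29, whereas from P5 to P8 no point passes the dotted fold change cutoffs with an FDR under 0.05.

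The tested genes whose log2(CPM + 1) over the 12 libraries was most like that of each of the 7 genes were found by Pearson correlation, as a description. The libraries form an embryonic and a postnatal group, so any gene that steps between them correlates with any other. For *Cpeb4* the nearest were *Cystm1*, *Nod2* and *Slc16a7* (all r = 0.993), with 2346 of 15994 genes over 0.9. For *Cpeb2* they were *Mansc1* (0.985), *Tbc1d2* (0.980) and *Cnga2* (0.978), for *Cpeb1* *Clec4a1* (0.976), *Dmpk* (0.973) and *Angptl7* (0.968), and for *Cpeb3* *Stum* (0.985), *Baiap3* (0.980) and *Gata3* (0.973). For *Pabpc1* they were *Impdh2* (0.994), *Pgam1* (0.993) and *Sertad4* (0.993), and for *Pabpc4* *Maz* (0.998), *Cdc45* (0.997) and *Dlgap5* (0.996), with 3538 and 3771 genes over 0.9. The genes over 0.9 numbered 2154 for *Cpeb2*, 909 for *Cpeb1* and 660 for *Cpeb3*. *Pum2* had the fewest of the 7, with 105 genes over 0.9, led by *Cep128* (0.964), *Msi2* (0.963) and *Zfp217* (0.963).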

How the data were processed

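Whole-lung RNA of 3 mice at each of 4 time-points was sequenced (12 libraries). The authors aligned reads uniquely to mm10 with TopHat2 2.1.1 and Bowtie2 2.3.4 and counted them per Gencode gene with HTSeq-count 0.10.0. The deposited counts are raw and cover the genes that the authors kept as expressed. The deposited CPM divide each count by all mapped reads, and 100% of them came out as whole reads (tolerance 0.01), each equal to the count where both are given. The deposited splicing table was not used here, because it names events by VastDB ID and no table that pairs those IDs with genes was used; whether it holds events of the 7 genes was not examined. IDs were matched to symbols for 16136 of 16152 genes.

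Counts were tested with edgeR 4.0.16 (quasi-likelihood, TMM, R 4.3.3) in 1 fit of 12 libraries over 15994 genes with at least 1 CPM in 3 libraries, with Benjamini-Hochberg adjustment. Contrasts between adjacent intervals came from the same fit. Shares and ratios were tested by exact permutation. Alternatives used DESeq2 1.42.0 and limma 3.58.1 with pseudocounts of 1 and 0.1.

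The 7 genes, the pathway lists and the markers were chosen with earlier results of these data known, and the study itself had picked *Cpeb4* from these libraries. Pathway genes are named by a rule: per list and comparison, up to 3 genes a direction with the largest change past both cutoffs, or else the 1 with the smallest FDR. The intervals' contrasts and the alternatives without libraries that stand apart were added after seeing the data. The result of 1 gene of the lists that this rule names is not reported here.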

Additional observations from a re-analysis of the deposited data

Results flagged for a closer look

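Of the 80 genes of the pathway lists, 6 were outside the count table and were not tested, and 5 of them had reads in the table of CPM. The highest level in a library was 0.822 CPM for *Pabpc1l* (50 reads), 0.609 for *Pabpc5* (31 reads), 0.513 for *Btg4* (26 reads), 0.904 for *Nanos3* (56 reads) and 0.226 for *Dazl* (11 reads), each above the 3 reads that a count of 0 allows. *Nanos2* was listed at 0 in all 12 libraries. No untreated group stands apart in this design, so these levels have no control to be set against.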

How the results depend on the processing

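The counts of the 7 genes called stayed within 1.5 times of those reported in all 12 fits with 1 library left out, except from E15.5 to E18.5, where they were 0 to 1 (the 1 being *Cpeb1*, without E15.5 replicate 3). DESeq2 also called 1 gene in that interval, *Cpeb1*. With the FDR alone the counts of the 7 genes were 2 for E15.5 to E18.5 and 7 for E18.5 to P8, and those of the pathway genes 18, 58 and 17 in the 3 adjacent intervals. With both cutoffs and 1 library left out the pathway counts were 0 to 1, 7 and 0, the 1 being *Tent5b*, without E18.5 replicate 3. The *Cpeb4* share difference was 5.97 to 9.31 points with a library left out (exact permutation p = 0.0022 to 0.056), 4.81 for E18.5 against P5, 6.35 per exonic length and 4.25 without the E15.5 libraries with high cardiomyocyte markers. The log2 ratio difference of *Pabpc1* to *Pabpc4* was 0.21 for E18.5 against P5.

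Of 482 gene values under alternatives, 454 kept their direction and side of the thresholds, 6 lost the call, 2 gained it and 20 changed sign, all 20 in changes that were not past the FDR threshold. For *Pabpc1* from E15.5 to E18.5 the values were 4.9e-04 with DESeq2 size factors, 0.0016 with only the 2 time-points, 4.8e-04 in DESeq2, 0.011 without the libraries with high thymocyte markers, and -0.10 to 0.059 leaving 1 out. Without the latter libraries the change from P5 to P8 was 0.078 for *Cpeb4*, -0.0095 for *Pabpc1*, -0.22 for *Pabpc4* and 0.054 for *Pum2*. Leaving 1 out gave -0.038 to 0.19 for *Pabpc4* and -0.064 to 0.016 for *Pum2* in that interval. Without the E15.5 libraries with high cardiomyocyte markers *Cpeb3* was at 0.013 from E15.5 to E18.5. The cause was not tested.

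Same-numbered libraries were not paired by the design, and their deviations correlated by -0.288 to 0.265, over 0.1 in 4 of 18 pairs. With a replicate block 0, 5 and 0 of the 7 genes were called in the adjacent intervals, and 0, 7 and 0 of the pathway genes.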
